A study of Arabidopsis thaliana with 12 samples.

Results

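Arabidopsis thaliana plants that overexpress the transcription factor GRF3 were compared with a grf1 grf2 grf3 mutant line. Phosphate-starvation genes were higher in the overexpressor, led by the non-coding RNA IPS1 (log2 difference 3.37), and PHO2, which restrains phosphate uptake, was lower. The copper/zinc superoxide dismutases CSD1 and CSD2 were lower and the iron superoxide dismutase FSD1 was higher. At these superoxide dismutase genes wild type lay near the overexpressor and the mutant line stood apart, while at IPS1 wild type lay between. The FSD1 call was lost in several fits with 1 library left out. Many abscisic acid, lignin and aliphatic glucosinolate genes were called lower, and many jasmonate and ethylene genes were called higher. The 33 tested cell-cycle genes held 1 call, beside 16.4% of all genes called.

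The comparison is of 6 of the 12 libraries of a messenger RNA sequencing study, 3 of each genotype, taken by the genotype in the sample titles. The first group carried 35S:GRF3-GFP in the Ws strain (GRF3_OE) and the second was the grf1/grf2/grf3 mutant line in Ws (grf123). Both were whole plants of 14 days grown without treatment on MS medium and laid out in randomized complete blocks. The stated goal was to find genes that GRF1 and GRF3 regulate. The viral 35S promoter drives its transgene in most tissues, so GRF3 was not raised only where the native gene acts. Read counts per locus do not separate transgene from native GRF3 transcripts. Nothing in the labels says that the 3 libraries of a genotype came from separate cultures. The p-values thus set the group difference only against the scatter among these samples, which may be technical.

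Growth-regulating factors (GRFs) are plant transcription factors that work with GRF-interacting factors (GIFs) as co-activators and promote cell proliferation in young leaves. The microRNA miR396 lowers the transcripts of most family members, through a site in the coding sequence where the DNA-binding domain is encoded. The sites are shown because the overexpressed gene carries one. Sequences are from RefSeq, assembly TAIR10.1. Capitals mark the microRNA's seed (bases 2 to 8) and, in each gene, the bases opposite it.
miR396a-5p: uUCCACAGcuuucuugaacug
GRF1 site (chr2:9729944-9729965, + strand): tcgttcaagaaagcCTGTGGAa
GRF2 site (chr4:17726404-17726425, - strand): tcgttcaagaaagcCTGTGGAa
GRF3 site (chr2:15271745-15271766, - strand): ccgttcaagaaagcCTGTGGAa
The GRF1 and GRF2 sites have the same letters and pair with the microRNA with 2 mismatches and 1 unpaired base, and the GRF3 site with 1 mismatch and 1 unpaired base, G:U pairs counted as mismatches. The labels do not say whether the GRF3-GFP transgene keeps this site.

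GRF3 (chr2:15270088-15273115, - strand) had 219, 198 and 224 CPM (read counts relative to the TMM-scaled library size) in GRF3_OE replicates 1, 2 and 3 and 25.1, 24.2 and 20.14 CPM in the libraries labelled grf123. The groups did not overlap, and the means were 214 ± 13.9 and 23.1 ± 2.64 CPM (SD, n = 3). The log2 difference was 3.23 ± 0.11 (SE), adjusted p = 3.92e-14 (edgeR, quasi-likelihood F test, p-values adjusted over all genes by Benjamini-Hochberg). GRF3 RNA in the libraries labelled grf123 came from 152, 78 and 288 counts, and on a scale set over all 12 libraries their 24.7, 23.8 and 19.8 CPM lay within the wild-type range of 15.9 to 29.4 CPM. Whole-gene counts thus did not show a loss of GRF3 RNA in the libraries labelled grf123. The position of the mutation is not given in the sources used here, and counts say nothing of whether a functional protein is made.

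Among the other family members, the 2 genes that the mutant line also lacks by its label were at like levels in both groups. GRF1 (chr2:9728480-9731301, + strand) had 9.11, 8.83 and 9.08 CPM in GRF3_OE and 7.93, 8.06 and 10.2 CPM in grf123, and the groups overlapped (log2 difference -0.0021 ± 0.18 (SE), edgeR adjusted p = 0.996). GRF2 (chr4:17725337-17727909, - strand) had 6, 8 and 5 counts in GRF3_OE and 5, 4 and 11 counts in grf123, too few to pass the filter on low counts. On the 12-library scale wild type had 12.4, 12.4 and 8.34 CPM of GRF2, above all libraries of both lines. Wild type had 16.6, 15.9 and 18.9 CPM of GRF1 on that scale, against 8.67 to 8.95 CPM in GRF3_OE and 7.80 to 10.02 CPM in grf123, again above all libraries of both lines. The compared lines thus differ in GRF3 RNA and share GRF1 and GRF2 RNA below the wild-type libraries.

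GRF5, a family member known to raise leaf cell number, had 2.4, 1.82 and 1.61 CPM against 3.96, 4.03 and 3.78 CPM, with no overlap (log2 difference -1.02 ± 0.31 (SE), adjusted p = 0.0303). The co-activator GIF1, also known as AN3, had 14.4, 9.81 and 9.77 CPM against 16.7, 15.8 and 18.5 CPM, again with no overlap (log2 difference -0.62 ± 0.17 (SE), adjusted p = 0.014). Both edgeR calls were lost with DESeq2 (adjusted p = 0.129 for GRF5 and 0.061 for GIF1) and with single libraries left out. For GRF5 the adjusted p became 0.0943 without GRF3_OE replicate 2, 0.134 without GRF3_OE replicate 3, 0.0672 without grf123 replicate 1, 0.0662 without grf123 replicate 2 and 0.064 without grf123 replicate 3. For GIF1 it became 0.0743 without GRF3_OE replicate 2, 0.0872 without GRF3_OE replicate 3 and 0.0569 without grf123 replicate 3. GRF4, GRF8, GRF9, GIF2 and GIF3 were tested and not called, with log2 differences of 0.14, 0.19, -1.03, -0.058 and -0.28.

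**Figure D1:**
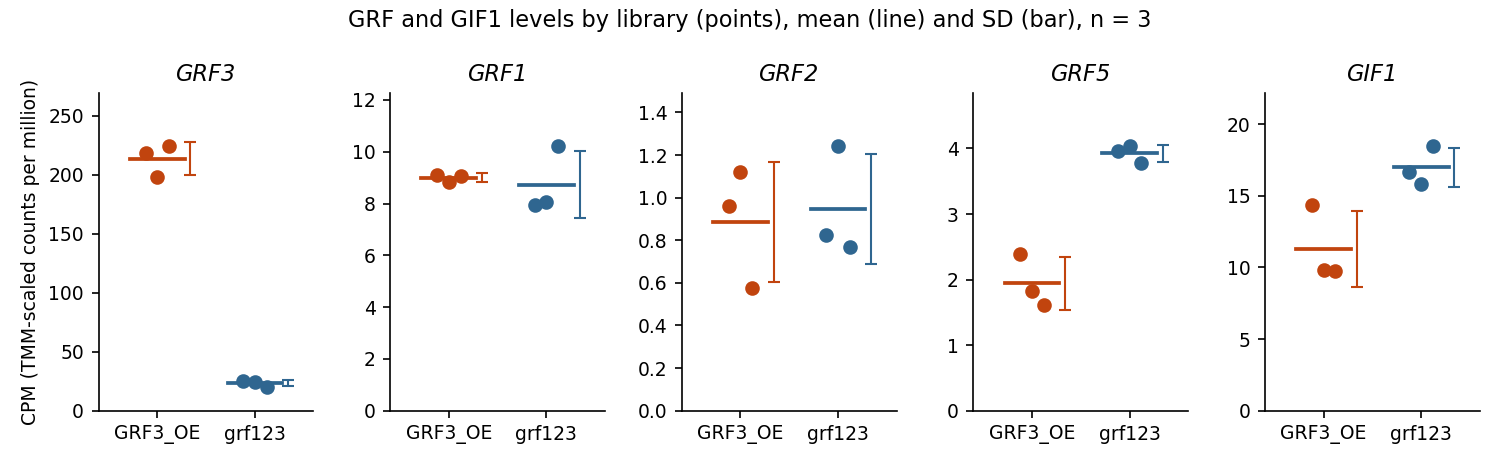
CPM of GRF family genes and GIF1 in each library (points), with the mean (line) and SD (bar) of 3 libraries per group, each panel on its own axis from 0. GRF3 lies between 198 and 224 CPM in GRF3_OE and between 20.13 and 25.1 CPM in grf123, while the GRF1 panels overlap.

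Across the genome, 17450 genes had enough counts to be tested and 2861 were called at an adjusted p under 0.05 in edgeR, which is 16.4%. Of these, 1451 (8.32%) were higher in GRF3_OE and 1410 (8.08%) were lower. Most calls were small, with a median absolute log2 difference of 0.56 among called genes, and a 2-fold difference or more was reached by 255 of the higher genes (1.46% of those tested) and 283 of the lower ones (1.62%). The libraries of both groups did not overlap at 2771 of the called genes, and over all genes tested they did not overlap at 17.6% in the higher and 16.8% in the lower direction. Calls were spread over the 5 nuclear chromosomes, at 15.6 to 18.1% of tested genes. The count depended on single libraries and on the tool. It was 1790 without GRF3_OE replicate 2, 1876 without GRF3_OE replicate 3, 1901 without grf123 replicate 2 and 1841 with DESeq2, which called 1754 of the same genes in the same direction.

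The 6 libraries held 3557137 to 14277574 gene counts, and the first principal component, with 50.7% of the variance, separated the genotypes. Reads of the 18S ribosomal locus made up 13.1 to 19.4% of gene counts in GRF3_OE and 21.6 to 24.4% in grf123, and reads outside genes were 4.57 to 5.11% against 6.39 to 9.53% of unique reads. The log2 difference fell with transcript length (Spearman rho across 17437 genes -0.30), from a median of 0.17 among the 1746 shortest transcripts to -0.20 among those of 3208 bases or more. Of that longest group 22.9% were called lower and 1.9% higher. These measures of library make-up differ between the groups in the same way as the genotype and cannot be told apart from it. With the length trend removed, edgeR called 2113 genes, 1847 of them among the 2861. In whole plants, fewer cells of a type and less RNA per cell cannot be told apart.

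**Figure D2:**
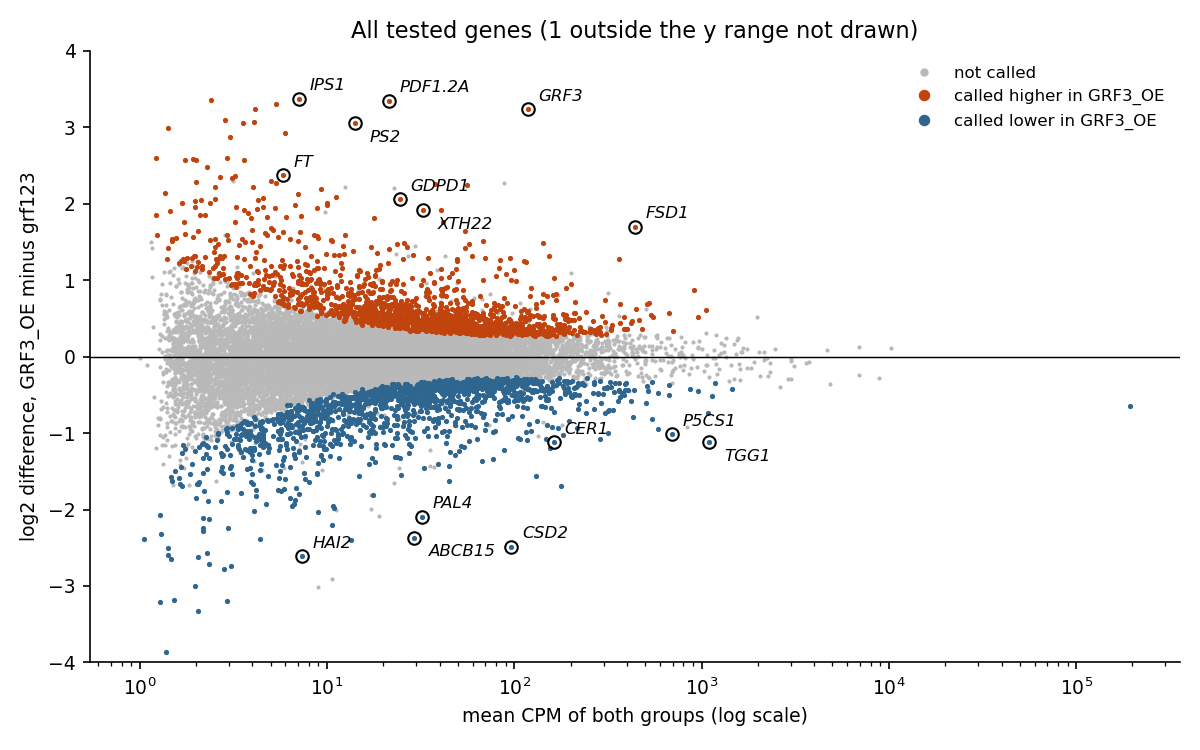
Log2 difference of GRF3_OE minus grf123 for each tested gene against its mean CPM (log axis), with called genes coloured by direction and several genes described in the text marked. The 1451 higher and 1410 lower calls lie on both sides of 0, and GRF3 stands far above the genes of like abundance. The gene beyond the axis, FRO5, is not drawn.

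The phosphate-starvation genes gave the highest share of calls of the 33 gene lists: 19 of 27 tested members were higher and 4 were lower, beside 8.32% and 8.08% of all genes. Their median log2 difference was 0.88, against 0.00 over all genes. Plants short of phosphate raise transporters, secreted phosphatases and enzymes that replace phospholipids with galactolipids and sulfolipids, largely through the transcription factor PHR1, which SPX proteins hold back when phosphate is ample. The microRNA miR399 lowers PHO2, a ubiquitin-conjugating enzyme that removes phosphate transporters, and the non-coding RNAs IPS1 and AT4 hold miR399 back by pairing with it without being cut. The pairing letters are shown because miR399's target and its decoys were called in opposite directions. Capitals mark the seed and the bases opposite it.
miR399c-3p: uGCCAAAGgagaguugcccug
PHO2 site (chr2:14282106-14282126, - strand): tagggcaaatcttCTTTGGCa
IPS1 site (chr3:3051224-3051247, + strand): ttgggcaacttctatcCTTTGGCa
AT4 site (chr5:895149-895172, + strand): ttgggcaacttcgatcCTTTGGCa
Each pairs fully with the seed and has 3 mismatches, and the IPS1 and AT4 stretches have 3 extra bases, the bulge by which a decoy is known to escape cleavage.

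The decoy RNA IPS1 had 13.6, 8.41 and 16.8 CPM in GRF3_OE and 1.49, 1.24 and 1.12 CPM in grf123, with no overlap (log2 difference 3.37 ± 0.31 (SE), adjusted p = 5.17e-07 in edgeR). AT4 had 22.5, 20.3 and 39.2 CPM against 9.08, 8.68 and 6.71 CPM (log2 difference 1.82 ± 0.29 (SE), adjusted p = 0.00358). PHO2 itself had 124, 132 and 113 CPM against 185, 203 and 219 CPM and was lower in every GRF3_OE library (log2 difference -0.72 ± 0.10 (SE), adjusted p = 4.53e-05). Thus both decoys rose while the miR399 target fell. The microRNA itself is not measured by these libraries. PHR1, the main activator of the response, was not called (log2 difference -0.17, edgeR adjusted p = 0.264).

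Of the SPX genes, which encode the phosphate-sensing inhibitors of PHR1 and are themselves induced by phosphate shortage, SPX1 had 80.4, 73.7 and 92.1 CPM against 30.2, 27.6 and 22.7 CPM (log2 difference 1.64 ± 0.12 (SE), adjusted p = 2.49e-08). SPX3 had 2.4, 1.54 and 2.41 CPM against 0.33, 0.31 and 0.35 CPM (log2 difference 2.59 ± 0.51 (SE), adjusted p = 0.00155). SPX2 was higher by a log2 difference of 0.88 (adjusted p = 0.000273). The groups did not overlap at SPX1 or SPX3, and all 3 edgeR calls held with any 1 library left out.

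Lipid-remodelling and phosphatase genes moved the same way. PECP1, a phosphatase that acts on phosphocholine and phosphoethanolamine, had 10.9, 7.14 and 10.9 CPM against 1.65, 0.931 and 0.629 CPM (log2 difference 3.31 ± 0.33 (SE), adjusted p = 1.23e-06). The galactolipid synthase MGD3 had 5.59, 4.2 and 11.8 CPM against 1.49, 0.62 and 0.629 CPM (log2 difference 3.07 ± 0.49 (SE), adjusted p = 0.00126), and its relative MGD2 had 6.39, 5.88 and 9.999 CPM against 1.98, 1.24 and 1.82 CPM (log2 difference 2.08 ± 0.30 (SE), adjusted p = 7.57e-05). All 3 were at low levels in grf123 and higher in each GRF3_OE library. GDPD1, which cleaves glycerophosphodiesters left by phospholipid breakdown, had 34.4, 35.6 and 47.5 CPM against 12.1, 10.9 and 7.2 CPM (log2 difference 2.06 ± 0.19 (SE), adjusted p = 8.97e-06). The sulfolipid synthase SQD2 had 132, 115 and 159 CPM against 73.6, 70.1 and 61.7 CPM (log2 difference 0.99 ± 0.12 (SE), adjusted p = 1.15e-05), and the purple acid phosphatase PAP17 had 70.8, 75.5 and 91.6 CPM against 30.7, 27.6 and 30.1 CPM (log2 difference 1.42 ± 0.11 (SE), adjusted p = 4.7e-08). None of these 6 genes overlapped between the groups.

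PS2, another phosphatase of the response, had 24.8, 13.4 and 37.5 CPM against 2.48, 3.72 and 3.15 CPM, a log2 difference of 3.06 ± 0.50 (SE), adjusted p = 0.0156. Its GRF3_OE libraries were widely spread, and the edgeR adjusted p became 0.0842, 0.065 and 0.089 without grf123 replicates 1, 2 and 3. PLDZ2, SQD1, PHO1;H1, PAP12, PHT1;4 and PAP10 were also higher, by log2 differences of 1.32, 0.798, 0.92, 0.77, 0.73 and 0.62. Of the 23 calls in the list, 20 held with each of the 6 libraries left out in turn, and the others were PS2, PHF1 and PHO1.

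Some uptake genes did not follow. The high-affinity phosphate transporter PHT1;2 had 6.07, 6.16 and 6.32 CPM against 12.1, 13.6 and 12.8 CPM and fell (log2 difference -1.04 ± 0.18 (SE), adjusted p = 0.000405), as did its neighbour PHT1;1 (-0.95 ± 0.17 (SE), adjusted p = 0.000545). These 2 genes are near-identical in sequence, so the division of reads between them is uncertain. PHO1, which loads phosphate into the xylem, was lower by a log2 difference of -0.72 (adjusted p = 0.0251), a call lost without GRF3_OE replicate 3 (0.103), grf123 replicate 1 (0.0936) or grf123 replicate 3 (0.126). PHT1;5, NPC4 and RNS1 were tested and not called.

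PHR1 is known to bind the palindrome-like motif GNATATNC. It was searched on both strands in the 250 bases before the annotated start of each tested gene with a promoter in the assembly. The motif was in 5.42% of all 17437 such windows, in 7.31% of those of higher-called genes and in 5.32% of those of lower-called genes. In the phosphate list it was in 8 of 27 windows (29.6%), in 6 of 19 of the higher-called members and in 2 of the 8 others. The promoters are shown for 4 strongly higher members that hold it, with the matches in capitals.
SPX3 promoter (chr2:18606160-18606409, + strand): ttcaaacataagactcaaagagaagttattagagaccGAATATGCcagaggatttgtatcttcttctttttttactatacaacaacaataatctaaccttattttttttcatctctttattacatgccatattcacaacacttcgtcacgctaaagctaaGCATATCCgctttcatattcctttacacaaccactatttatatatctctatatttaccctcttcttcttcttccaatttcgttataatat
GDPD1 promoter (chr3:350011-350260, - strand): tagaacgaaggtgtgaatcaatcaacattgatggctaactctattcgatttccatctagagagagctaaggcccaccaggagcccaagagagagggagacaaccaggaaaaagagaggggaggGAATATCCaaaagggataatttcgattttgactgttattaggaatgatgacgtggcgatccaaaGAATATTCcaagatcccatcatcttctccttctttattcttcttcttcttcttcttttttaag
PS2 promoter (chr1:27466349-27466598, - strand): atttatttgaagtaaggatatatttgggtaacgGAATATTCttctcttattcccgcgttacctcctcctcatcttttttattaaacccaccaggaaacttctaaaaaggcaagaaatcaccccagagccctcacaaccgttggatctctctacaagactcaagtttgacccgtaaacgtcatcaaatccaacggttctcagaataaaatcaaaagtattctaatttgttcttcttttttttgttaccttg
MGD2 promoter (chr5:6896213-6896462, + strand): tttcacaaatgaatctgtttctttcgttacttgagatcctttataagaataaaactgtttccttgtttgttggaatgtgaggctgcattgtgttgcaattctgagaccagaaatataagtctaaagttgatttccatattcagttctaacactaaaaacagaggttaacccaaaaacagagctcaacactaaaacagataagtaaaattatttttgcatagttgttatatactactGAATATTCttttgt
A match is a run of letters and not a measured binding site. IPS1 and PECP1, the most changed members, had no match, which says only that these letters are not in this window.

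**Figure D3:**
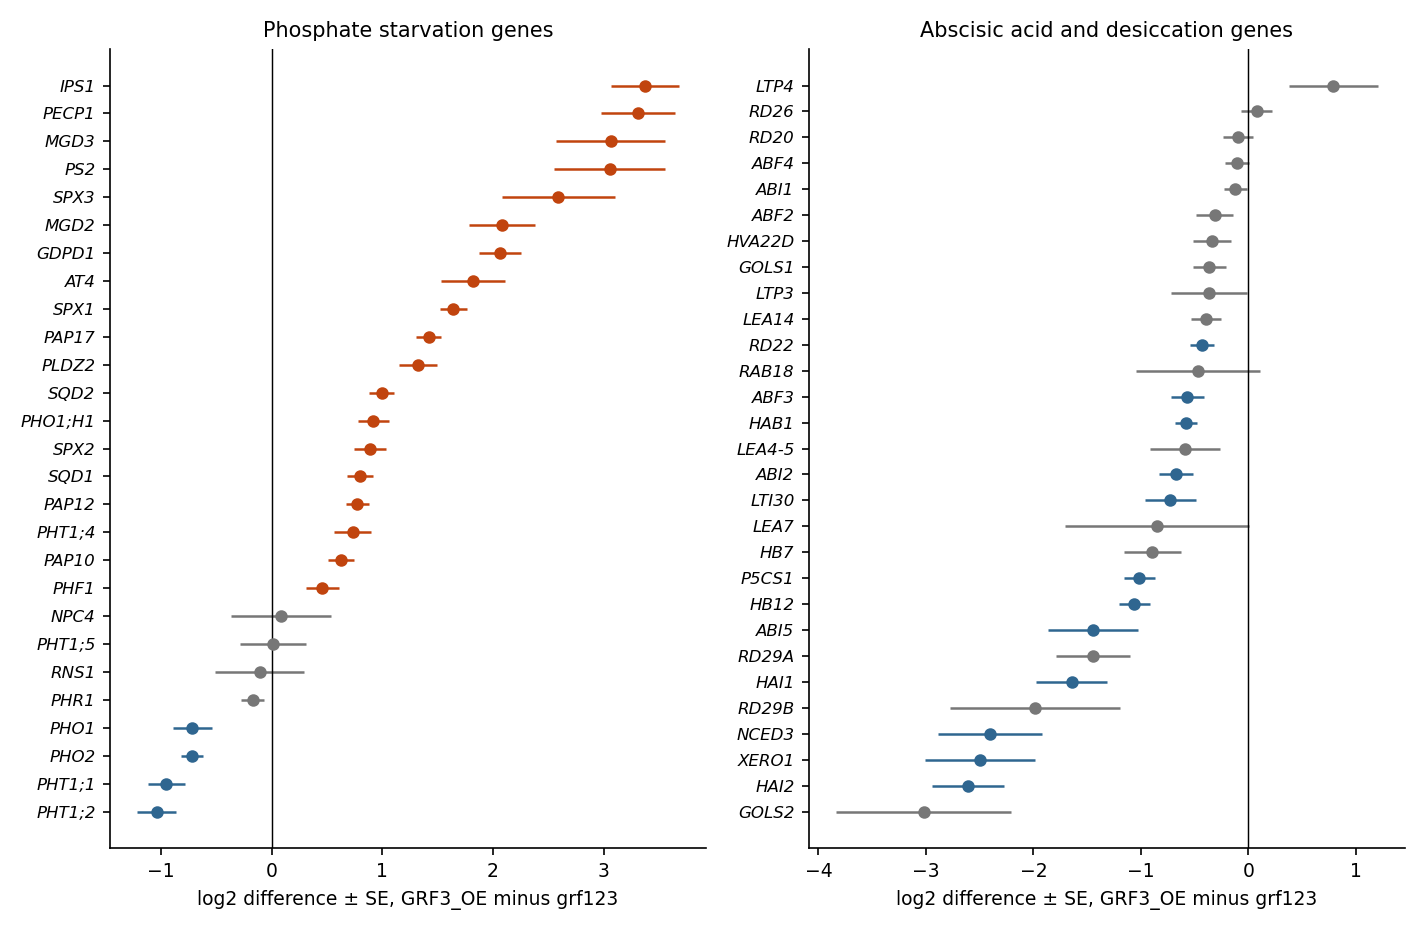
Log2 difference of GRF3_OE minus grf123 with its SE for every tested gene of the phosphate-starvation list (27 genes) and of the abscisic acid list (29 genes), with called genes coloured. Most of the phosphate genes lie to the right of 0 with IPS1 at 3.37, and 27 of the 29 abscisic acid genes lie to the left of 0.

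The superoxide dismutases split by the metal they carry. Of 14 tested members of the list, 6 were higher (42.9%) and 4 lower (28.6%), beside 8.32% and 8.08% of all genes. The median log2 difference was 0.24. Plants short of copper raise miR398 through the transcription factor SPL7, and miR398 lowers the copper/zinc superoxide dismutases and their copper chaperone while iron superoxide dismutase takes over. The sites in the 3 lowered genes are shown against the microRNA, with capitals at the seed and the bases opposite it.
miR398b-3p: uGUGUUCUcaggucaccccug
CSD1 site: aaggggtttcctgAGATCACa
CSD2 site (chr2:12015572-12015593, + strand): tgcgggtgacctggGAAACATa
CCS1 site (chr1:4267521-4267541, - strand): attgggagacctgGGAACACt
The CSD1 site lies outside the coding sequence and crosses an exon junction, with 4 mismatches. The CSD2 and CCS1 sites lie in the coding sequence and have 6 mismatches each, G:U pairs included, with 1 extra base in CSD2.

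CSD2, the plastid copper/zinc superoxide dismutase, had 36.3, 25.1 and 27.0 CPM in GRF3_OE and 206, 137 and 148 CPM in grf123 (log2 difference -2.49 ± 0.19 (SE), adjusted p = 5.81e-05 in edgeR). CSD1, the cytosolic enzyme, had 23.49, 19.5 and 23.3 CPM against 65.4, 60.8 and 76.1 CPM (log2 difference -1.62 ± 0.12 (SE), adjusted p = 1.48e-08). CCS1, the chaperone that loads copper into both, had 25.6, 22.1 and 24.9 CPM against 71.7, 60.5 and 63.0 CPM (log2 difference -1.43 ± 0.11 (SE), adjusted p = 2.89e-08). All GRF3_OE libraries lay below all grf123 libraries at the 3 genes, and the calls held with any 1 library left out. ARPN, a plantacyanin and a known target of miR408, was the fourth lower gene, by a log2 difference of -2.24 (adjusted p = 0.00127).

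FSD1, the abundant iron superoxide dismutase, had 627, 777 and 628 CPM against 126, 219 and 279 CPM, with no overlap (log2 difference 1.699 ± 0.32 (SE), adjusted p = 0.0267). Its edgeR adjusted p became 0.0662, 0.085 and 0.075 without GRF3_OE replicates 1, 2 and 3 and 0.0827 without grf123 replicate 2. COPT2, a copper uptake transporter that SPL7 is known to activate, had 13.9, 16.8 and 15.2 CPM against 5.61, 7.13 and 7.9 CPM (log2 difference 1.12 ± 0.18 (SE), adjusted p = 0.000201). The copper chaperone CCH was higher too, by a log2 difference of 0.54 (adjusted p = 0.00553). FSD3 and FSD2 were higher by log2 differences of 0.43 and 0.54, at adjusted p = 0.0186 and 0.049, and these calls also depended on single libraries: the list held 3 higher calls, not 6, without GRF3_OE replicate 1, GRF3_OE replicate 3 or grf123 replicate 2. SPL7 itself was not called (-0.23).

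FRO5, a reductase of the copper and iron uptake family, had 18, 15 and 17 counts in GRF3_OE and 0 in each library labelled grf123. Set against a floor of 3 counts over the grf123 group, it was at least 17.8-fold higher. FRO4, its near-identical neighbour, was not called (log2 difference -0.13), and the division of reads between such copies is uncertain. A list of targets of the copper-linked microRNAs miR397, miR398, miR408 and miR857 was chosen after values were seen. Of its 9 tested members 8 were lower and none was higher, beside 8.08% and 8.32% of all genes. Because of that choice, and because it includes CSD1, CSD2, CCS1 and ARPN given above, this count is a description only. The edgeR call of its member LAC3 was lost without GRF3_OE replicate 2 (adjusted p = 0.0707) or grf123 replicate 3 (0.0812). The laccase LAC4, which oxidises monolignols in the wall, had 13.4, 14.99 and 16.4 CPM against 32.2, 28.8 and 32.3 CPM (log2 difference -1.06 ± 0.13 (SE), adjusted p = 1.15e-05), and LAC7 had 18.4, 8.55 and 12.9 CPM against 30.5, 33.8 and 33.8 CPM (log2 difference -1.32 ± 0.20 (SE), adjusted p = 0.000948). LAC2 was lower by a log2 difference of -1.48 (adjusted p = 0.00152), and LAC13 was not called (-0.47). The core letters GTAC that SPL7 is known to bind were in 5 of the 14 promoter windows of the copper list (35.7%) and in 34.4% of all windows.

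**Figure D4:**
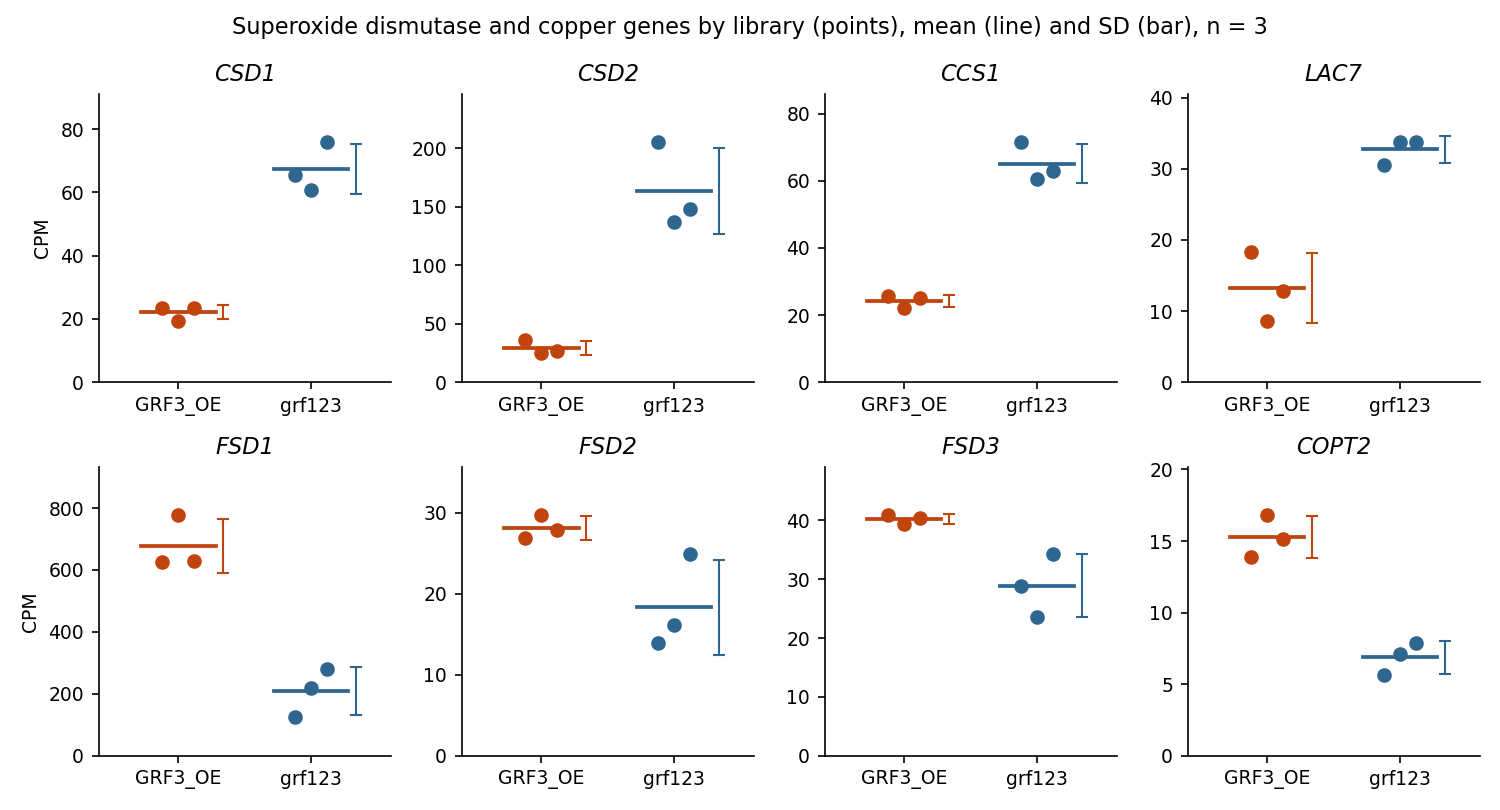
CPM of superoxide dismutase and copper genes in each library (points) with the mean (line) and SD (bar) of 3 libraries per group, each panel on its own axis from 0. CSD1, CSD2 and CCS1 are lower and FSD1 is higher in GRF3_OE, with no overlap between groups in these 4 panels.

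Abscisic acid genes were lower. In the list of abscisic acid and desiccation genes, 12 of 29 tested members (41.4%) were called lower and none higher. Over all genes 8.08% were called lower and 8.32% higher. The list's median log2 difference was -0.59, and 27 of the 29 differences were negative. Abscisic acid is the hormone of water deficit and seed dormancy, and its level is set in part by NCED3, which cleaves carotenoids in the committed step of synthesis. Its receptors inhibit type 2C protein phosphatases, whose genes are in turn induced by the hormone. HAI2, one of these phosphatases, had 1.28, 1.82 and 2.99 CPM against 7.6, 14.3 and 16.3 CPM (log2 difference -2.61 ± 0.33 (SE), adjusted p = 0.000206). HAI1, a close relative, had 3.84, 3.22 and 4.6 CPM against 6.11, 14.3 and 15.8 CPM (log2 difference -1.64 ± 0.33 (SE), adjusted p = 0.00632). The phosphatases ABI2 and HAB1 were lower by log2 differences of -0.67 (adjusted p = 0.00608) and -0.58 (adjusted p = 0.000563).

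P5CS1, the enzyme of stress-induced proline synthesis, was the most abundant of the lowered members, at 438, 400.1 and 549 CPM against 747, 1040.0 and 1014 CPM (log2 difference -1.01 ± 0.14 (SE), adjusted p = 0.000131). The dehydrin XERO1 and the homeobox gene HB12 were lower by log2 differences of -2.499 (adjusted p = 0.00204) and -1.06 (adjusted p = 7.29e-05). NCED3 had 3.84, 3.5 and 5.06 CPM against 10.4, 31.6 and 25.9 CPM, with no overlap but a wide spread within grf123 (log2 difference -2.402 ± 0.48 (SE), adjusted p = 0.0279). Its edgeR adjusted p became 0.0868, 0.119 and 0.0886 without GRF3_OE replicates 1, 2 and 3 and 0.0666 without grf123 replicate 3, and 0.0537 without a count filter. RD29A, a widely used reporter of drought and cold, was not called (-1.44, adjusted p = 0.0525), and RD26 stood at 0.078. With a library left out the list held 8 to 16 lower calls, and 7 of the 12 held in all 6 such fits. The abscisic acid response element letters ACGTGNC were in 12 of the 29 promoter windows (41.4%) and in 9.69% of all windows, and they were also in 9 of 15 windows of the morning clock list.

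Jasmonate and ethylene genes were mostly higher: 12 of 23 tested members (52.2%) were called higher and 2 (8.7%) lower, beside 8.32% and 8.08% of all genes. Their median log2 difference was 0.71. The 2 hormones act together through the activator ORA59 on defensin genes, while jasmonate alone acts through MYC2 on wound and storage genes. ORA59 was higher by a log2 difference of 1.68 (adjusted p = 0.00398). The chitin-binding defence protein PR4 had 218, 232 and 208 CPM against 62.4, 85.3 and 113 CPM (log2 difference 1.32 ± 0.19 (SE), adjusted p = 0.00346). The defensin PDF1.2A had 32.6, 61.2 and 22.4 CPM against 4.95, 4.65 and 2.87 CPM (log2 difference 3.35 ± 0.59 (SE), adjusted p = 0.0274), but the edgeR adjusted p became 0.0535 without GRF3_OE replicate 1 and 0.0912, 0.0965 and 0.118 without grf123 replicates 1, 2 and 3. PDF1.2A and PDF1.2B are near-identical, so their counts are uncertain.

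Enzymes of jasmonate synthesis were among the higher genes. AOC1, an allene oxide cyclase, had 38.5, 49.9 and 29.9 CPM against 15.7, 12.4 and 14.8 CPM (log2 difference 1.43 ± 0.17 (SE), adjusted p = 8.17e-05), and the lipoxygenase LOX2 had 637, 796 and 521 CPM against 348, 434 and 417 CPM (log2 difference 0.71 ± 0.14 (SE), adjusted p = 0.00243). The JAZ repressors JAZ1, JAZ2 and JAZ9, which jasmonate induces and then degrades as proteins, were higher by log2 differences of 0.94, 0.78 and 0.697. Opposite to these, the vegetative storage protein VSP2, a marker of the MYC2 branch, had 16.6, 10.8 and 12.1 CPM against 30.2, 28.8 and 50.3 CPM (log2 difference -1.54 ± 0.27 (SE), adjusted p = 0.00812), and VSP1 fell with it (-0.89, adjusted p = 0.00241). MYC2 was not called (0.064). Of the 14 calls, 9 held with each library left out in turn. In the touch and wound list, which stands for handling, 5 of 10 tested members were higher in edgeR, beside 8.32% of all genes. Among them was the calmodulin-like gene TCH3 (1.48, adjusted p = 7.09e-05 in edgeR). The list's count of higher calls was 3 without GRF3_OE replicate 2, GRF3_OE replicate 3 or grf123 replicate 3, and 2 with DESeq2. It was 1 in an edgeR fit of all 12 libraries, where TCH3 was at adjusted p = 0.0697. Of the list's 5 calls, 2 held with each library left out in turn. How far handling bears on the jasmonate genes was not tested.

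Genes of lignin monomer synthesis and the xylem wall were lower, with 15 of 29 tested members (51.7%) called lower and none higher. Over all genes 8.08% were called lower and 8.32% higher. The list's median log2 difference was -0.48. Lignin stiffens the secondary walls of xylem and is built from phenylalanine through the phenylpropanoid enzymes. PAL4, a phenylalanine ammonia-lyase at the entry of the pathway, had 10.5, 12.5 and 12.9 CPM against 51.7, 58.6 and 46.4 CPM (log2 difference -2.095 ± 0.13 (SE), adjusted p = 1.96e-09). The acyltransferase HCT, which directs the pathway to guaiacyl and syringyl units, had 66.0, 61.6 and 66.8 CPM against 99.1, 109 and 97.5 CPM (log2 difference -0.65 ± 0.09 (SE), adjusted p = 8.62e-05). Neither gene overlapped between groups. PAL1, 4CL1 and CCOAOMT1 were lower by log2 differences of -0.54, -0.51 and -0.48, and XCP2, a protease of dying xylem vessels, by -0.602 (adjusted p = 0.00192). COMT1, CCR1 and FAH1, which act later in the pathway, were not called. Another later gene, CAD5, was called lower. The CAD5 call was lost in several fits with 1 library left out. Among these were the fits without GRF3_OE replicate 1 (adjusted p = 0.0838) and without grf123 replicate 2 (0.126). Of the 15 calls, 7 held with each library left out in turn, and 13 genes were called with the length trend removed. The letters ACCNACC, a core of the element bound by phenylpropanoid MYB factors, were in 7 of 29 promoter windows (24.1%) and in 6.49% of all windows. They were not particular to this list: they were in 6 of 21 windows of the aliphatic glucosinolate list (28.6%) and 3 of 10 of the evening clock list (30%). The starch list had them in 0 of 17.

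Aliphatic glucosinolates are methionine-derived defence compounds whose synthesis is driven by the transcription factors MYB28, MYB29 and MYB76. All 21 tested members of the list had a negative log2 difference, with a median of -0.43. Of these, 10 (47.6%) were called lower, beside 8.08% of all genes. MYB29 had 11.3, 10.6 and 8.05 CPM against 18.8, 28.2 and 27.8 CPM (log2 difference -1.33 ± 0.18 (SE), adjusted p = 4.58e-05). MYB28 was lower by -0.43 (adjusted p = 0.00737). Their target CYP79F1, which makes the first aldoximes of the pathway and has a near-identical copy in CYP79F2, had 125, 101 and 124 CPM against 194, 242 and 237 CPM (log2 difference -0.94 ± 0.11 (SE), adjusted p = 8.32e-06). BCAT4, MAM1, CYP83A1 and SOT17, which act before and after it, were lower by log2 differences of -0.56, -0.55, -0.499 and -0.62. TGG1, the abundant myrosinase that splits glucosinolates on wounding, had 680.0, 627 and 777 CPM against 1447, 1422 and 1648 CPM (log2 difference -1.12 ± 0.12 (SE), adjusted p = 2.75e-06). The groups did not overlap at MYB29, CYP79F1 or TGG1. With a library left out the list held 7 to 14 lower calls. In the indolic branch, made from tryptophan, MYB34 was lower (-0.87, adjusted p = 0.000218) and the list held 1 higher and 2 lower calls among 10 tested, of which the MYB34 call held with each library left out in turn.

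Genes that loosen walls gave calls in both directions. In the expansin and xyloglucan endotransglucosylase/hydrolase (XTH) list, 9 of 26 tested members were higher (34.6%) and 5 lower (19.2%). Over all genes the shares were 8.32% and 8.08%. The list's median log2 difference was 0.49. XTH22, also known as the touch gene TCH4, had 49.1, 48.2 and 55.3 CPM against 18.8, 13.0 and 10.1 CPM (log2 difference 1.92 ± 0.18 (SE), adjusted p = 1.88e-05), and XTH24 had 179, 249.6 and 196 CPM against 85.4, 80.3 and 59.8 CPM (log2 difference 1.49 ± 0.15 (SE), adjusted p = 9.41e-05). XTH4, XTH16 and XTH18 were higher by log2 differences of 0.81, 0.78 and 0.896. The expansins, which loosen walls without cutting polymers, gave 4 calls, all lower. EXPA4 had 28.9, 32.8 and 33.8 CPM against 68.0, 75.7 and 71.5 CPM (log2 difference -1.16 ± 0.10 (SE), adjusted p = 2.16e-07), and EXPA15 had 21.6, 23.53 and 23.8 CPM against 41.6, 41.6 and 55.8 CPM (log2 difference -1.04 ± 0.13 (SE), adjusted p = 1.25e-05). At these 4 genes the libraries of the groups did not overlap. The XTH22 call was lost in the edgeR fit of all 12 libraries (adjusted p = 0.141), where wild type had 32.9, 47.7 and 242.8 CPM. With the length trend removed the list held 6 higher and 5 lower calls. Of the 14 edgeR calls, 8 held with each library left out in turn. EXPA5 was lost without GRF3_OE replicate 2 (adjusted p = 0.154), GRF3_OE replicate 3 (0.0895) or grf123 replicate 3 (0.168). EXPA6 was lost without GRF3_OE replicate 1 (0.061).

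Among 29 tested genes of organ size, leaf shape and boundaries, 2 were higher (6.9%) and 6 lower (20.7%), beside 8.32% and 8.08% of all genes, and the median log2 difference was -0.18. ARGOS, which prolongs cell proliferation in leaves, had 7.99, 12.3 and 7.59 CPM against 2.31, 4.34 and 3.29 CPM (log2 difference 1.54 ± 0.26 (SE), adjusted p = 0.000425), and its relative ARL, which promotes cell expansion, had 17.1, 30.7 and 21.1 CPM against 11.2, 13.6 and 11.3 CPM (log2 difference 0.96 ± 0.19 (SE), adjusted p = 0.00249). ANT, the transcription factor that acts after ARGOS in organ growth, had 12.6, 9.95 and 12.3 CPM against 20.8, 24.2 and 23.4 CPM and fell (log2 difference -0.97 ± 0.15 (SE), adjusted p = 0.000134). The leaf-shape factors TCP5, TCP2 and TCP10 were lower by log2 differences of -0.91, -0.52 and -0.47. Of the list's 8 calls, 6 held with each library left out in turn, and the lower genes KNAT3 and AS1 did not. In the cell-cycle and DNA replication list 1 of 33 tested genes was called lower, MCM7, and none higher, beside 16.4% of all genes called. The list's median log2 difference was -0.02. The groups did not overlap at 9 of the 33 genes in the lower and 1 in the higher direction. Over all genes these shares were 16.8% and 17.6%. This list held 2 lower calls without grf123 replicate 1, and 1 higher and 2 lower calls without grf123 replicate 3.

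Auxin genes held 6 lower calls (33.3%) and 1 higher (5.56%) among 18 tested, beside 8.08% and 8.32% of all genes. ABCB15, an ABC transporter linked to auxin transport in stems, had 10.2, 8.27 and 10.1 CPM against 39.8, 49.6 and 57.0 CPM (log2 difference -2.37 ± 0.15 (SE), adjusted p = 3.1e-09). The repressor IAA14 and the influx carriers AUX1 and LAX3 were lower by log2 differences of -1.0002, -0.47 and -0.61. The single higher gene, IAA19, was at adjusted p = 0.0451 and kept its call in 1 of 6 fits with a library left out (adjusted p = 0.122 without GRF3_OE replicate 1, 0.095 without GRF3_OE replicate 2, 0.0859 without GRF3_OE replicate 3, 0.124 without grf123 replicate 1 and 0.0959 without grf123 replicate 2). FT, the mobile signal that triggers flowering, had 9.11, 13.3 and 7.01 CPM against 2.31, 1.24 and 1.82 CPM, with no overlap (log2 difference 2.38 ± 0.29 (SE), adjusted p = 1.77e-05). SEP3, a floral organ factor, was higher as well (1.33, adjusted p = 2.5e-05), and CDF1 and CDF3, repressors in the photoperiod pathway, were lower by -0.84 and -0.595. CDF1 and CDF3 were named after their values were seen.

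**Figure D5:**
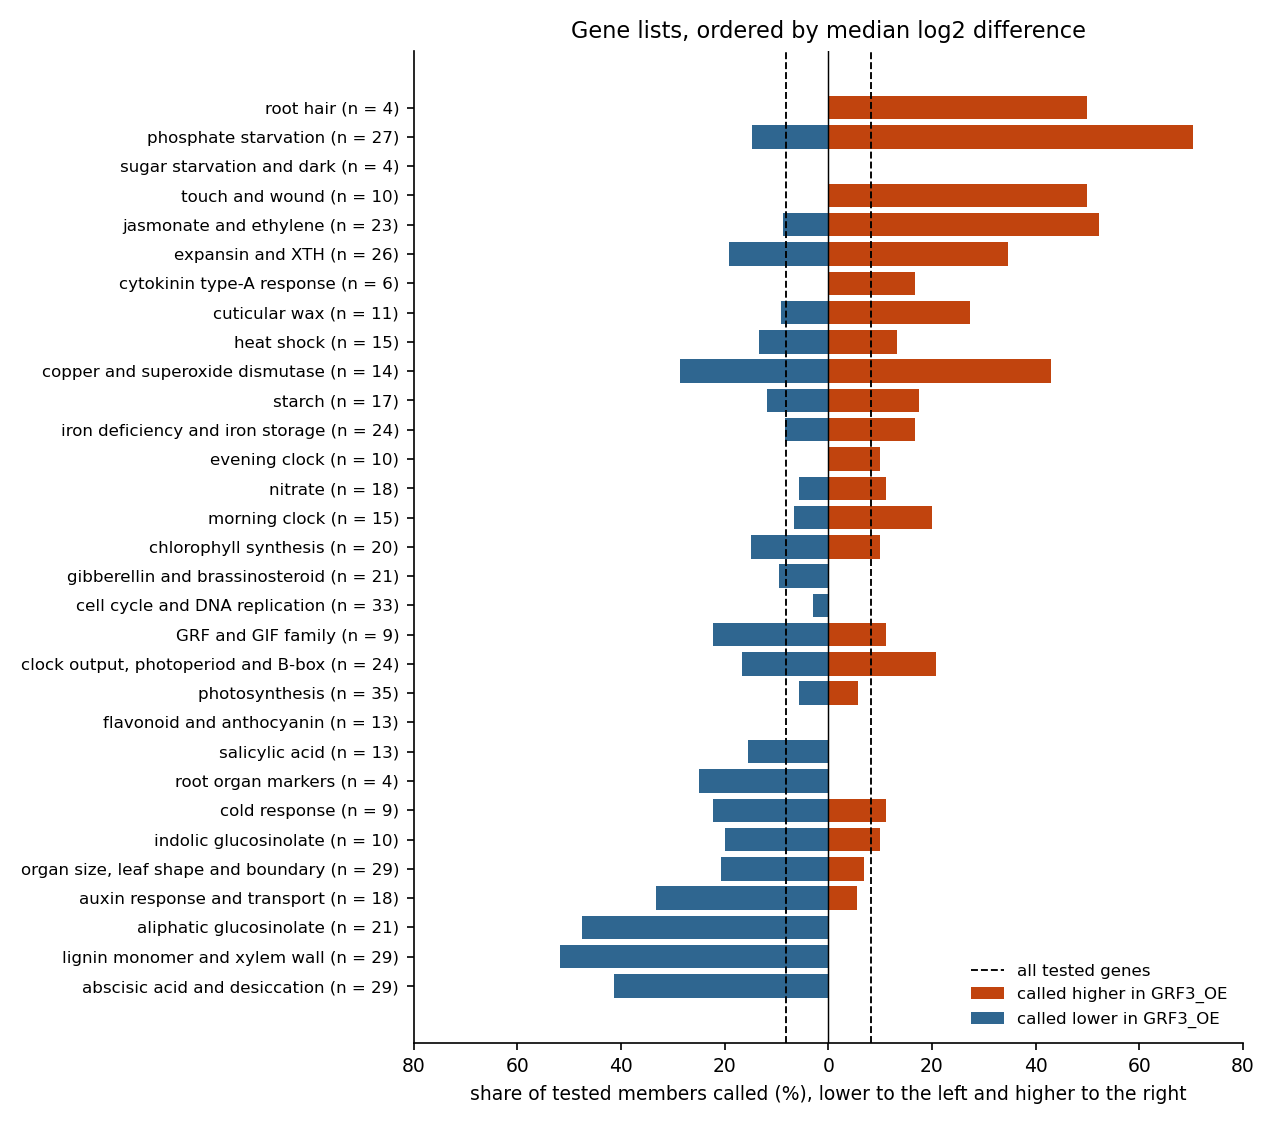
Share of tested members called lower (left) and higher (right) in percent for each gene list with at least 4 tested members, ordered by median log2 difference. The phosphate-starvation list has 70.4% of members higher, the lignin list has 51.7% lower, and the shares of all genes are 8.32% and 8.08%.

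Other nutrient and metabolism lists held fewer calls, and their counts depended on single libraries. They stand beside 8.32% of all genes called higher and 8.08% called lower. Among 24 iron genes 4 were higher and 2 lower, with a median log2 difference of 0.16, but without grf123 replicate 1 the list held 7 higher calls, without GRF3_OE replicate 3 no lower call, and without grf123 replicate 3 the median was -0.23. NAS3, a nicotianamine synthase, was higher by 1.82 (adjusted p = 3.57e-05), and YSL3, which carries metal-nicotianamine complexes out of leaf veins, had 46.2, 42.0 and 42.2 CPM against 16.8, 23.3 and 24.3 CPM (log2 difference 1.003 ± 0.13 (SE), adjusted p = 2.35e-05). Both iron calls held with any 1 library left out. The starch list held 3 higher and 2 lower calls among 17, and 1 of the 5 held with each library left out in turn, the beta-amylase BAM5 at 72.6, 122 and 83.2 CPM against 14.5, 23.3 and 21.2 CPM (log2 difference 2.25 ± 0.26 (SE), adjusted p = 0.00313). Of 11 cuticular wax genes 3 were higher, or 1 without GRF3_OE replicate 2 or grf123 replicate 3. The lower wax gene was CER1, which makes wax alkanes, at 107, 89.8 and 112 CPM against 221, 217 and 234 CPM (log2 difference -1.12 ± 0.10 (SE), adjusted p = 2.16e-07). The nitrate list held 2 higher and 1 lower call among 18, of which 1 and 1 held in all 6 fits with a library left out. Of 35 photosynthesis genes 2 were higher and 2 lower, of which 2 and 1 held. Of 20 chlorophyll genes 2 were higher and 3 lower, and none of these 5 calls held in all 6 such fits. Of 13 flavonoid genes none was called in edgeR at an adjusted p under 0.05.

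Stress and clock lists were mixed, and stand beside 8.32% of all genes called higher and 8.08% called lower. Of 15 heat-shock genes 2 small heat-shock proteins were higher, HSP17.6II (2.37, adjusted p = 0.000164) and HSP17.6A (1.95, adjusted p = 0.000708), while HSFA6A was lower (-2.77, adjusted p = 0.00249) along with 1 other gene. That list held 7 higher calls without GRF3_OE replicate 2 or grf123 replicate 1, 5 without grf123 replicate 2, and 5 with DESeq2. Of its 4 calls, 3 held with each library left out in turn, and the lower gene HSP70-5 did not. The cold list held 1 higher and 2 lower calls among 9, with KIN2 lower by -1.56 (adjusted p = 0.00337). Of these 3 calls, 1 held with each library left out in turn, while without grf123 replicate 1 the list held 2 higher and 5 lower calls. Among 15 morning clock genes RVE2 was higher by 1.43 (adjusted p = 0.000163), and LNK1 was lower (-0.57, adjusted p = 0.000239). PRR5 was higher too (0.57, adjusted p = 0.00442), while PRR7, the other higher gene, kept its call in 1 of 6 fits with a library left out (adjusted p up to 0.239). The evening list held 1 higher call among 10, lost without GRF3_OE replicate 2. The clock output and photoperiod list, which includes FT and the CDF genes, held 5 higher and 4 lower calls among 24, of which 3 and 2 held in all 6 such fits.

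Hormone and organ lists were small, and stand beside 8.32% of all genes called higher and 8.08% called lower. The 13 salicylic acid genes held 2 lower calls, and the 21 gibberellin and brassinosteroid genes 2 lower calls, among them the DELLA gene RGL2 (-1.36, adjusted p = 0.00119), and 1 call of each list held with each library left out in turn. Of 6 cytokinin response genes 1 was higher, or 4 of 7 without GRF3_OE replicate 3. Of 15 root-hair genes 4 could be tested and 2 were higher, the wall genes XTH14 (2.604, adjusted p = 0.000593) and PRP3 (1.65, adjusted p = 0.014). The PRP3 call was lost, with adjusted p = 0.0519 without grf123 replicate 1, 0.0671 without grf123 replicate 2 and 0.0762 without grf123 replicate 3, and without GRF3_OE replicate 3 the root-hair list held 4 higher calls. The seed storage list had no member with enough counts. Of 3 tested floral organ genes 1 was higher, the SEP3 gene given above. Among 4 tested root markers PYK10, a root beta-glucosidase, was lower, a call lost in 4 of 6 fits with a library left out (adjusted p = 0.192 without GRF3_OE replicate 2, 0.0951 without GRF3_OE replicate 3, 0.109 without grf123 replicate 2 and 0.108 without grf123 replicate 3). Of 4 sugar starvation genes none was called at an adjusted p under 0.05.

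Further genes with the largest differences lay outside the lists. EXT13, an extensin-like wall protein, had 8.15, 4.48 and 3.68 CPM against 0.826, 0.31 and 0.769 CPM (log2 difference 2.87 ± 0.42 (SE), adjusted p = 8.74e-05), and the cytochrome P450 gene CYP71B22 had 4.15, 8.69 and 5.06 CPM against 1.65, 1.55 and 0.489 CPM (log2 difference 2.57 ± 0.43 (SE), adjusted p = 0.000545). The P450 gene CYP82C4, whose enzyme makes iron-mobilising coumarins, had 0.479, 0.14 and 1.03 CPM against 9.08, 2.17 and 4.61 CPM (log2 difference -3.203 ± 0.58 (SE), adjusted p = 0.00263). All 3 rest on low counts, with no overlap between groups. EXPB1 and MYB47 were lower by log2 differences of -2.39 (adjusted p = 0.0031) and -2.205 (adjusted p = 0.00135). Among abundant genes, the ethylene response factor EBP had 435, 704 and 399.1 CPM against 202, 223 and 211 CPM (log2 difference 1.28 ± 0.21 (SE), adjusted p = 0.00638, and adjusted p = 0.0784 without grf123 replicate 3), and DOT1, a glycine-rich protein gene, had 214, 215 and 203 CPM against 425, 413 and 431 CPM (log2 difference -1.005 ± 0.10 (SE), adjusted p = 5.17e-07). Of the 538 genes called with at least a 2-fold difference, 254 have no gene symbol in the annotation.

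A block of loci on chromosome 2 moved together. Chromosome 2 carries a large copy of the mitochondrial genome, and 42 tested loci between chr2:3239693 and chr2:3503476 shared at least 90% of their 31-base words with it. Of these, 31 were called lower in GRF3_OE and none higher, with a median log2 difference of -0.86 and a range of -1.63 to 0.02. They were chosen after their values were seen. They took 0.134, 0.132 and 0.148% of gene counts in GRF3_OE and 0.274, 0.275 and 0.19% in grf123, with no overlap. Reads of these copies and of the mitochondrial genome cannot be told apart where the letters are identical. Among the other 2672 tested genes of the chromosome 459 were called in either direction (17.2%). Over all genes 8.08% were called lower and 8.32% higher.

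Genes next to the genes named in the mutant's label were also described, a choice made after values were seen. Of 12 genes next to GRF2, 6 on each side, 6 were tested and 3 were called. bZIP7, beside GRF2, was lower by a log2 difference of -1.93 (edgeR adjusted p = 5.41e-05). The gene beside it on the other side is ANT, described above. XTH7, the sixth gene on that side, was higher by 0.79 (adjusted p = 0.0149, and adjusted p = 0.0538 without grf123 replicate 1 and 0.086 without grf123 replicate 3). Of 6 tested neighbours of GRF1 and 9 of GRF3 none was called at an adjusted p under 0.05. Over all genes tested 16.4% were called, and with so few neighbours no conclusion is drawn from these counts.

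Wild type was not in the fit, and its level was set beside both groups as a description, on CPM scaled over all 12 libraries. Of the 255 genes at least 2-fold higher in GRF3_OE, the wild-type mean lay between both groups for 158, above both for 87 and below both for 10. Without wild-type replicate 3, which has the fewest counts, these numbers were 190, 55 and 10. Of the 283 genes at least 2-fold lower, it lay between for 220, above both for 26 and below both for 37. IPS1 had 3.94, 3.64 and 5.27 CPM in wild type, between 8.26 to 16.5 CPM in GRF3_OE and 1.098 to 1.46 CPM in grf123. PAL4 had 22.7, 18.5 and 26.8 CPM in wild type, likewise between the groups. CSD2 differed from this, with 28.6, 32.0 and 24.2 CPM in wild type, beside 24.6 to 35.6 CPM in GRF3_OE and 134 to 203 CPM in grf123. FSD1 had 600, 605 and 629 CPM in wild type, 616 to 764 CPM in GRF3_OE and 124 to 274 CPM in grf123. For the superoxide dismutases the libraries labelled grf123 were thus the ones that stood apart from wild type. TGG1 lay at 659, 560 and 635 CPM in wild type and at 616 to 764 CPM in GRF3_OE, against 1398 to 1618 CPM in grf123. HAI2 was placed otherwise, with wild type at 9.65, 10.9 and 5.71 CPM. That overlapped grf123 at 7.47 to 16.0 CPM and lay above GRF3_OE at 1.26 to 2.94 CPM.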

How the data were processed

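Per the labels' protocols, messenger RNA was isolated with magnetic beads from whole plants of 14 days and made into libraries with NEBNext kits. Per the submitters' processing notes, the tools were Trimmomatic, TopHat2 2.0.14, HTSeq and DESeq2, and the genome build was TAIR10. The authors deposited read counts for 28775 loci as whole numbers that had not been normalized. Of these, 28009 (97.3%) matched the TAIR10.1 RefSeq annotation, which gave symbols, coordinates and sequences. Neither the strand setting nor the annotation release is given in the sources used here. Overlapping and antisense genes therefore have uncertain counts. The counts hold only uniquely aligned reads, with alignments that were not unique in a row of their own.

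The 5 rows that name no gene held 57.6 to 71.6% of all counts in the 6 libraries and were left out. The test was edgeR 4.0.16 in R 4.3.3 (TMM factors, filterByExpr with minimum count 10 and minimum total 15, robust quasi-likelihood F test, genotype only, 4 residual degrees of freedom, Benjamini-Hochberg threshold 0.05). The SE of a log2 difference is its size over the square root of F. No 2 libraries of a group agreed within sampling noise (chi-square over degrees of freedom 2.97 to 9.15). An exact permutation test of 3 against 3 libraries cannot go below p = 0.1, so none was run. The floor of 3 counts covers counting error only, since the reads carry no molecular identifiers and may be copies of 1 molecule. The procedure was tested on simulated data.

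The 33 gene lists, the comparison and the members were chosen with earlier results of these data known. Named genes are the GRF and GIF family, the 10 called genes per direction with the largest difference that have a symbol, no overlap and at least 5 CPM, the 4 most different called members of each list with at least 2 calls, and the 5 most abundant called genes per direction with at least a 2-fold difference. Other list members described, and those named as not called, were named after their values were seen. Alternatives were DESeq2 1.42.0, other scaling factors and filters, a fit of all 12 libraries, a replicate block, removal of a length or GC trend (lowess span 0.3), ribosomal loci left out, and each library left out in turn. Wild type and the GRF1 overexpressor entered only the 12-library fit and its scale. Wild-type levels on that scale were also described for GRF1, GRF2, GRF3 and XTH22 and in the closing paragraph of levels.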

Additional observations from a re-analysis of the deposited data

How the results depend on the processing

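The number of called genes, 2861 in edgeR, was 1841 with DESeq2, 1720 with a replicate block and the length trend removed together, 2467 with a replicate block alone, 2113 with the length trend removed alone, 2674 in a fit of all 12 libraries and 3301 without a count filter. With RLE or upper-quartile factors, a filter of 1 CPM, a GC trend removed or ribosomal loci left out it was 2833 to 2883. Leaving out 1 library gave 1790 to 2987. Replicate numbers did not pair the libraries: deviations of same-numbered libraries correlated at -0.094 to 0.0398, and 1 of 6 libraries correlated best with its own number. The GRF3 difference was 3.095 to 3.312 (log2) under all settings tried and stayed past the threshold. GRF1, uncalled throughout and near 0, changed sign to 0.01473 with DESeq2, 0.001146 with the 1 CPM filter, 0.00453 without a filter, 0.0235 with the replicate block, 0.04353 with block and length trend removed, 0.00945 with the GC trend removed and 0.01736 with the length trend removed. With 1 library left out, uncalled family members ran from -0.08347 to 0.1594 (GRF1), -0.004358 to 0.3197 (GRF4), -0.02135 to 0.461 (GRF8) and -0.1853 to 0.006378 (GIF2). Of 110 named genes, 76 kept both direction and side of the threshold in the 11 settings that kept all 6 libraries, and 63 in the 6 that left 1 out. With length removed, or length and block, 8 called genes changed sign, and none under the other settings. Causes were not tested. Depth limits the low genes, such as GRF2 with at most 11 counts a library.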
